A study of Mus musculus with 6 samples.

Results

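The liver of a mouse fed ergosterol was compared with the liver of a mouse fed stigmasterol, gene by gene, across the transcriptome. Both animals were male, lacked Abcg8 in the whole body, and were raised to weaning on a diet low in sterols that held 0.005% ezetimibe, which blocks sterol absorption in the gut. The test diet followed for 12 weeks. Each diet had 1 mouse and 1 RNA sequencing library, out of 4 livers and 2 adrenal glands in the series. The livers of a low sitosterol and a high sitosterol mouse, with the same deletion and the same early diet, are given as context beside the values. The sources used here give no sterol doses, so that the duration was matched and the doses cannot be stated. The genes described are those at 1 CPM (counts scaled to the library total) or more in at least 1 of the 2 libraries, which were 13221 of 33639 genes in the deposited table. Of these, 11409 reached the limit in both livers, 165 in the ergosterol liver alone and 1647 in the stigmasterol liver alone.

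Abcg5 and Abcg8 form the half-transporter pair that pumps plant and fungal sterols out of hepatocytes into bile and out of the gut wall. Without it these sterols build up in tissues. Ergosterol is the main sterol of fungi and stigmasterol a sterol of plants. Both carry a double bond in the side chain. Ergosterol has a methyl group where stigmasterol has an ethyl group on that side chain, and it has an additional double bond in the ring system. Hepatocytes sense sterols through SREBP2, which drives cholesterol synthesis and uptake when membrane sterol is low, and through LXR, which oxysterols and some plant sterols activate. FXR senses bile acids and restrains their synthesis, and stigmasterol is known as an antagonist of FXR in cell assays.

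Levels of single genes are given in scaled CPM, that is counts per library scaled by the total and a TMM factor, for the liver of each diet. A pair of values joined by "against" is ergosterol against stigmasterol, and the log2 ratio is ergosterol over stigmasterol, followed where given by the bounds of its 95% interval.

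Abcg8 itself still had counts, at 8.84 with ergosterol, 11.6 with stigmasterol, 1.25 with low and 10.6 with high sitosterol. The deleted part of the gene was not stated in the labels, so that these counts do not check the genotype. Abcg8 and Abcg5 also overlap in their spans on opposite strands of chromosome 17. The libraries do not mark strand, so that some reads may be assigned to the wrong gene of the pair. Abcg5, the partner, stood at 72.8 with ergosterol, 132 with stigmasterol, 11.7 with low and 188 with high sitosterol. Abundant hepatocyte transcripts were present in both libraries, with albumin (Alb) at 50474 TPM (a length-scaled share of transcripts) with ergosterol and 36316 with stigmasterol.

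Of the 13221 genes, 906 (6.85%) were higher in the ergosterol liver and 2573 (19.5%) were higher in the stigmasterol liver, 26.3% in all. A gene was counted as different when its ratio was 2-fold or more and an exact 95% interval of the ratio excluded equality, a rule called the size rule here. With 1 library a side there is no replicate check and no p-value, and the rule compares 2 libraries and not 2 diets. Ratios were taken on scaled CPM with a prior count of 0.5. The median ratio of all 13221 genes was -0.04, with quartiles at -0.68 and 0.35. Differences of 4-fold or more were found for 215 genes higher in the ergosterol liver and 1349 higher in the stigmasterol liver, and those of 16-fold or more for 55 and 354. The balance of the 2 directions differed with level. Of 239 genes past the rule with a geometric mean over 100 scaled CPM, 210 were higher in the ergosterol liver, and of 908 with a geometric mean under 1, 810 were higher in the stigmasterol liver. Between these levels 598 were higher with ergosterol and 1734 with stigmasterol. Also, 1393 of the 1647 genes that reached 1 CPM in the stigmasterol liver alone were called higher there.

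The libraries held 47789184 (ergosterol) and 50573364 (stigmasterol) estimated counts. A gene with no count could still be at up to 0.0673 and 0.0440 scaled CPM, the level of 3 counts. Intervals and limits cover counting error only. The scaling is the main choice behind the split. The TMM factor was 0.93 for the ergosterol library and 1.35 for the stigmasterol library, whose 50 most abundant genes held 32.5% of counts against 39.1% in the ergosterol library. With library totals alone, the median of all genes moved by -0.53, to a value of -0.57, and 406 genes were higher with ergosterol and 3984 with stigmasterol. The share of differences on the stigmasterol side was 74.0% with TMM factors, 90.8% with library totals and 90.5% on the deposited TPM. Library totals lower the ratios by about 0.53, so that 500 calls in the ergosterol direction, up to a log2 ratio of 1.53, are lost. Among the genes named below these are Acat2, Pmvk, Nsdhl, Scap, Scd1, Cyp4a14, Baat, Abcb11, Ghr, Igfals, Cd5l, Ccl24, Il18, Alas2 and Col18a1, whereas no call in the stigmasterol direction is lost. Counts of list members under TMM factors are to be read against the shares of all genes, 6.85% and 19.5%, so that 2 of 12 or 3 of 18 in the stigmasterol direction is near the background. For many of the gene lists, counts under library totals stand beside those under TMM factors. Those under library totals have another background, 406 and 3984 of 13221 genes. Against it, 7 of 23 in the stigmasterol direction is near the background. Since the livers are whole tissue, fewer cells of a type and less RNA per cell cannot be told apart for any gene.

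**Figure D1:**
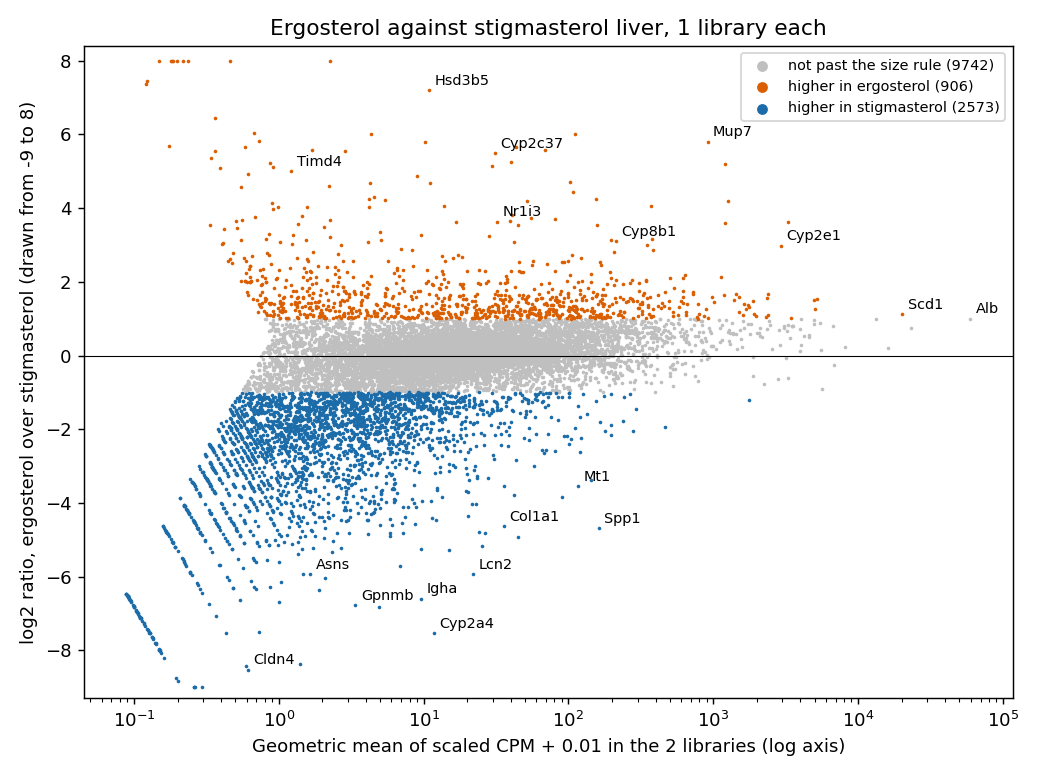
Ratio of each of the 13221 analysed genes (y axis, log2 scaled CPM of the ergosterol over the stigmasterol liver, with 12 genes beyond -9 or 8 drawn at those limits) against the geometric mean of its scaled CPM plus 0.01 in both libraries (x axis, log scale). Each point is 1 gene: orange points are the 906 genes higher in the ergosterol liver, blue points the 2573 higher in the stigmasterol liver and grey points the 9742 not past the size rule; with library totals in place of TMM factors the split is 406 to 3984. Of the 239 genes past the rule with a geometric mean over 100, 210 lie above 0.

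The sitosterol livers were nearer to the ergosterol liver for most of the genes higher in the stigmasterol liver. For 1593 of those 2573 genes (61.9%) both sitosterol livers were nearer to the ergosterol liver on the log2 scale, and for 222 (8.63%) both were nearer to the stigmasterol liver. For the 906 genes higher in the ergosterol liver the corresponding numbers were 431 (47.6%) and 212 (23.4%). In another 611 genes of the stigmasterol side (23.7%) the low sitosterol liver was nearer to ergosterol and the high sitosterol liver nearer to stigmasterol. These shares are partly set by the choice of genes, since genes chosen for being high in 1 library tend to be lower in any other. Of the 2573 genes, 1393 reached 1 CPM in the stigmasterol liver alone. The shares are therefore a description and do not show that the stigmasterol library stood apart. With 1 mouse per diet, animal and diet cannot be told apart.

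On the TPM scale, which compares genes per length, the largest differences in level toward ergosterol were those of Gm21320, an older symbol in RefSeq for the major urinary protein gene Mup22 (19289 against 2243 TPM), and Apoa2 (31759.8 against 15753 TPM), with Alb next. Major urinary protein genes are close copies of each other, so reads can be split among them and single members are uncertain. Apoe, which carries lipoproteins to their receptors, was higher by less than 2-fold (40129 against 32648 TPM). Toward stigmasterol, the largest differences in TPM were those of Trf, the iron carrier transferrin (16548 against 23589.6 TPM), and Hpx, the heme carrier hemopexin (3494 against 9484 TPM). On scaled CPM neither passed the rule, and Trf changed direction (log2 ratios 0.21 and -0.92). Hp, the haemoglobin carrier haptoglobin, went with Hpx (2561 against 5634 TPM, log2 ratio -0.61 on scaled CPM).

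Genes of cholesterol synthesis were higher in the ergosterol liver or not past the rule, and none passed it in the stigmasterol direction. In the mevalonate arm, which builds the isoprenoid units, 6 of 9 genes were higher in the ergosterol liver (median log2 ratio 1.22), and from squalene to cholesterol 6 of 12 were (median 0.97). Under library totals, 2 and 1 genes were higher in the ergosterol liver and the medians were 0.68 and 0.44, with 1 gene of the later arm, Lbr, now higher in the stigmasterol liver. Most of the promoters of these genes that could be read hold CCAAT, the element bound by NF-Y, a factor that works with SREBP at sterol-controlled promoters. For this reason 3 of them, picked by hand, are shown as the 180 bases before the transcription start, from RefSeq on GRCm38.p6. They read 5′ to 3′ on the strand of the gene, with CCAAT or its reverse complement ATTGG in capitals, and in Hmgcs1 also the sterol response element TCACCCCAC.

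Mvd (chr8:122443423-122443602, minus strand): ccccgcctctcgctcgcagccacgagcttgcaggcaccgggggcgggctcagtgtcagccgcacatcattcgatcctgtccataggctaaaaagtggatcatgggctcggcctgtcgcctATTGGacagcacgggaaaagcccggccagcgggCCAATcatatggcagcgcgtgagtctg

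Hmgcs1 (chr13:119690171-119690350, plus strand): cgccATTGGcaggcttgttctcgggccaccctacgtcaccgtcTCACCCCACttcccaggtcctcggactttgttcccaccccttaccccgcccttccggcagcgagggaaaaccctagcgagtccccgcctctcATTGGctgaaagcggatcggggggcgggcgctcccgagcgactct

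Pmvk (chr3:89454361-89454540, plus strand): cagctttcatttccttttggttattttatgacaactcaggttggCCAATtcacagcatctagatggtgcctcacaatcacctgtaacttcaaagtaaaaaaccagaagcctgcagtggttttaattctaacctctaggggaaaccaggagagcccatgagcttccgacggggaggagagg

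Mvd, which decarboxylates mevalonate pyrophosphate and has 2 CCAAT elements in its stretch, was at 9.405 with ergosterol, 3.07 with stigmasterol, 26.3 with low and 8.94 with high sitosterol (log2 ratio 1.61, 1.37 to 1.86). Hmgcs1, the synthase that makes HMG-CoA, has 2 CCAAT elements and 1 sterol response element in the stretch shown, and it was at 135 with ergosterol, 75.9 with stigmasterol, 121 with low and 64.4 with high sitosterol (log2 ratio 0.83). Pmvk, the phosphomevalonate kinase, has 1 CCAAT element and was at 55.4 with ergosterol, 22.7 with stigmasterol, 43.2 with low and 18.1 with high sitosterol (log2 ratio 1.29). These promoters were among 16 found in the RefSeq table for the 21 cholesterol synthesis genes. Motifs were counted over 250 bases before to 50 after each start, a window wider than the stretches shown. CCAAT on either strand was found there in 15 of the 16 (93.8%), with Acat2 lacking it, against 41.1% of all 27025 genes with a promoter in the table. The sterol response element, searched as TCACNCCAC on both strands, was found in 1 of the 16, against 1.44% of all genes. A match is a description of the sequence and not evidence of a bound factor.

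Within the pathway the differences were uneven. Fdps, farnesyl diphosphate synthase (chromosome 3, 89093588 to 89101959, minus strand, GRCm38), had the widest difference of the mevalonate arm, at 269.6 with ergosterol, 81.6 with stigmasterol, 476 with low and 213 with high sitosterol (log2 ratio 1.72, 1.68 to 1.77). Tm7sf2, a sterol reductase, was at 105 against 22.04 scaled CPM in the ergosterol and stigmasterol livers (log2 ratio 2.25), a value that is uncertain because its exons overlap those of Vps51. Nsdhl, which removes methyl groups from the sterol ring, was at 37.7 against 13.4 (log2 ratio 1.49). Sqle, squalene epoxidase and a common readout of SREBP2, did not reach 2-fold and was at 13.98 with ergosterol, 7.35 with stigmasterol, 40.9 with low and 20.3 with high sitosterol (log2 ratio 0.93, 0.76 to 1.10). For Sqle the ergosterol liver was thus below both sitosterol livers while it was above the stigmasterol liver.

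Some genes of the feedback on SREBP2 were on the same side as the pathway. Among genes of SREBP2 feedback and sterol handling, 4 of 8 analysed were higher with ergosterol and 0 with stigmasterol (2 and 1 with library totals). Insig1, which holds the SREBP escort protein in the endoplasmic reticulum and is itself an SREBP target, was at 209 with ergosterol, 57.1 with stigmasterol, 219.96 with low and 296 with high sitosterol (log2 ratio 1.87, 1.82 to 1.93). Stard4, a cytosolic sterol carrier, had a log2 ratio of 1.54, and Scap, the escort protein, of 1.47. Srebf2, which encodes SREBP2, was not past the rule (40.02 against 33.8 scaled CPM, log2 ratio 0.25). The stigmasterol liver was the lowest of the 4 livers for Insig1 and Fdps.

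LXR targets were split and showed no common direction. Of 14 genes, 3 were higher with ergosterol and 4 with stigmasterol, and 2 and 6 with library totals. The median of 0.23 changed sign to -0.30 with library totals and -0.28 on TPM. Abca1, the cholesterol exporter to nascent HDL and the most used LXR readout, was close in both libraries, at 110.1 with ergosterol, 99.4 with stigmasterol, 101 with low and 86.4 with high sitosterol. Its interval lay within 2-fold (log2 ratio 0.15, 0.09 to 0.20). Abcg5 was lower in the ergosterol liver without reaching 2-fold (log2 ratio -0.85, -0.91 to -0.80). With library totals it passed the rule in the stigmasterol direction (log2 ratio -1.39). Abcg1, an exporter abundant in macrophages, was at 6.73 against 18.3 (log2 ratio -1.44). Lpl, lipoprotein lipase, was at 129 with ergosterol, 440.03 with stigmasterol, 25.4 with low and 257 with high sitosterol (log2 ratio -1.77, -1.81 to -1.73). Both were higher in the stigmasterol liver. Scd2, a stearoyl-CoA desaturase of cells other than hepatocytes, was at 10.5 with ergosterol, 124 with stigmasterol, 7.55 with low and 6.499 with high sitosterol (log2 ratio -3.55, -3.69 to -3.42), far above the other livers in the stigmasterol liver alone. On the other side were Pltp, the phospholipid transfer protein (log2 ratio 2.55), and Cyp7a1, described with bile acids below. Lipid-associated macrophage genes, whose list includes Lpl, were also higher in the stigmasterol liver, and their part in the values of Lpl and Abcg1 was not tested. Of 12 genes of sterol esterification and lysosomal egress, 2 were higher in the stigmasterol liver and none in the ergosterol liver, with a median of 0.09 that became -0.45 with library totals. Soat1, the cholesterol acyltransferase of macrophages, was one of them (4.33 against 11.8, log2 ratio -1.44), whereas Soat2, the acyltransferase of hepatocytes, was not past the rule (35.4 against 26.5, log2 ratio 0.42, 95% interval 0.32 to 0.51).

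Fatty acid synthesis was higher in the ergosterol liver across most of its genes. Of 19 genes, 15 were higher with ergosterol and none with stigmasterol (median log2 ratio 1.54), and with library totals 10 were past the rule (median 1.00). Scd1, the hepatocyte stearoyl-CoA desaturase, was among the most abundant transcripts of each liver, at 29854 with ergosterol, 13665 with stigmasterol, 15583 with low and 14774 with high sitosterol (log2 ratio 1.13). Its estimated count in the ergosterol liver is listed as a round number, so that its last digits may have been lost. Fasn, fatty acid synthase, was at 1324 with ergosterol, 401 with stigmasterol, 1149 with low and 963 with high sitosterol (log2 ratio 1.72, 1.70 to 1.75). The stigmasterol liver was the lowest of the 4 for both genes, while the ergosterol liver was the highest. Pnpla3, a lipid droplet protein under SREBP1c control, had a wide ratio (15.8 with ergosterol, 1.55 with stigmasterol, 19.8 with low and 5.92 with high sitosterol, log2 ratio 3.34). Thrsp, a lipogenic protein responsive to thyroid hormone and carbohydrate, differed in its order, with 272 with ergosterol, 41.2 with stigmasterol, 1369 with low and 671 with high sitosterol (log2 ratio 2.72): here the sitosterol livers were above both. Acacb, which makes malonyl-CoA at mitochondria, and Acss2, which makes cytosolic acetyl-CoA, had log2 ratios of 2.57 and 2.44. Srebf1, the gene of SREBP1, was not past the rule (355 with ergosterol, 237 with stigmasterol, 219 with low and 399 with high sitosterol, log2 ratio 0.58).

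**Figure D2:**
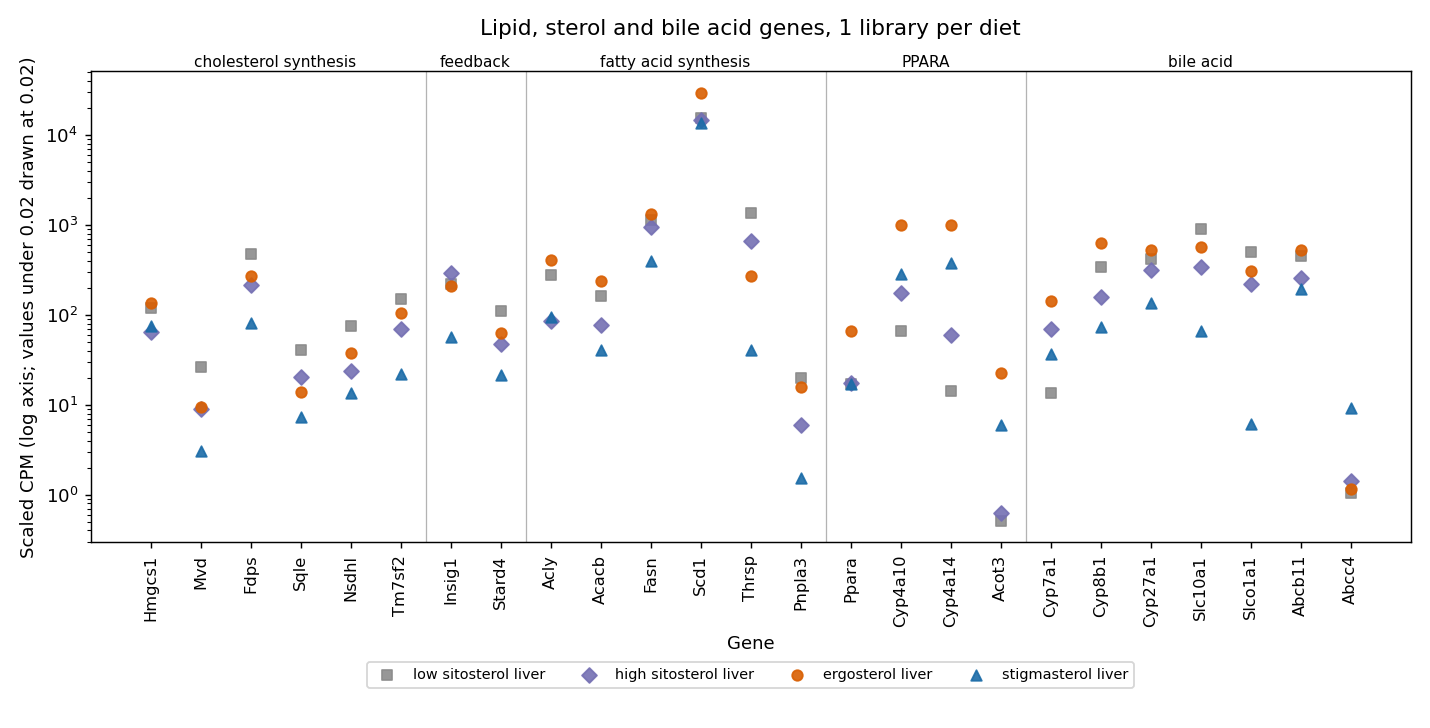
Scaled CPM (y axis, log scale) of lipid, sterol and bile acid genes (x axis) in the 4 livers, 1 library per diet and 1 point per library, with no error bars because there are no replicates. The stigmasterol liver (blue triangles) is the lowest or next to lowest for the genes of cholesterol and fatty acid synthesis shown, with Fasn at 401 against 1324 in the ergosterol liver, and it is the highest for Abcc4.

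The ergosterol liver had more of the transcripts of PPARA, the nuclear receptor that drives fatty acid oxidation in fasting, and of several of its targets. Ppara itself was at 66.96 with ergosterol, 17.04 with stigmasterol, 16.98 with low and 17.5 with high sitosterol (log2 ratio 1.97, 1.88 to 2.07), so that the other livers lay close together. Of 33 targets and oxidation genes, 11 were higher in the ergosterol liver and 1, Acot2, in the stigmasterol liver (median 0.58), and with library totals the counts were 6 and 4. Cyp4a14, a fatty acid omega-hydroxylase and a sensitive PPARA target, was at 1011 with ergosterol, 377 with stigmasterol, 14.1 with low and 60.5 with high sitosterol (log2 ratio 1.42). Cyp4a10, its neighbour in sequence, was at 1007 with ergosterol, 283 with stigmasterol, 66.6 with low and 174 with high sitosterol (log2 ratio 1.83). The ergosterol and stigmasterol livers were thus above both sitosterol livers for these genes, with the ergosterol liver the highest of all. The Cyp4a genes are close in sequence, so that their reads may be divided between them with error. Fabp1, the fatty acid binding protein of hepatocytes (log2 ratio 1.67), and Acot3, a peroxisomal thioesterase (22.4 with ergosterol, 5.97 with stigmasterol, 0.513 with low and 0.626 with high sitosterol, log2 ratio 1.90), were also higher in the ergosterol liver. Acot2, a mitochondrial thioesterase, went the other way (9.34 against 25.9, log2 ratio -1.47).

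Lipid droplet proteins gave no common direction, with 4 of 14 higher in the ergosterol liver, 1 higher in the stigmasterol liver (2 and 4 with library totals) and a median of 0.17 that became -0.36 with library totals. Fitm1, which helps droplets to form, was at 58.2 against 4.75 (log2 ratio 3.61), and Cidec, which fuses droplets into larger ones, at 16.7 with ergosterol, 64.5 with stigmasterol, 5.77 with low and 4.86 with high sitosterol (log2 ratio -1.95). Among apolipoproteins and lipoprotein enzymes, 5 of 21 were higher in the ergosterol liver and 1, Apoc2, in the stigmasterol liver (median 0.79). With library totals the counts were 3 and 2 and the median 0.26. Lipc, hepatic lipase, had a log2 ratio of 2.03, and Apoa2, a structural protein of HDL, one of 1.54 at 8796 against 3028 scaled CPM. Apoc2, the activator of lipoprotein lipase, was at 163 against 357 (log2 ratio -1.13), so that Lpl and its activator were both higher in the stigmasterol liver.

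Enzymes that turn cholesterol into bile acids were higher in the ergosterol liver, in 9 of 15 genes, with 1, the oxysterol enzyme Ch25h (0.157 against 0.939, log2 ratio -2.51), higher in the stigmasterol liver (median log2 ratio 1.11, and 6 and 1 with library totals). Ch25h reached 1 CPM in the stigmasterol library alone, so that its direction was partly set by the filter. Cyp7a1, the rate-limiting enzyme of the classical pathway, was at 145 with ergosterol, 37.3 with stigmasterol, 13.4 with low and 70.7 with high sitosterol (log2 ratio 1.96, 1.89 to 2.03), highest in the ergosterol liver and lowest in the low sitosterol liver. Cyp8b1, which sets the share of cholic acid (chromosome 9, 121914356 to 121916305, minus strand, GRCm38), was at 627 with ergosterol, 73.1 with stigmasterol, 343 with low and 159 with high sitosterol (log2 ratio 3.10, 3.06 to 3.14), and here the stigmasterol liver was the lowest. Cyp27a1 and Cyp7b1, of the alternative pathway, had log2 ratios of 1.98 and 1.94 with 529.7 against 135 and 127 against 33.1 scaled CPM in the ergosterol and stigmasterol livers. Baat, which joins bile acids to taurine, was at 237 against 109.9 (log2 ratio 1.11). Enzymes of both pathways and of conjugation were thus higher in the same library.

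Transporters of bile acids and phospholipids differed in both directions. Of 15 analysed, 6 were higher with ergosterol and 3 with stigmasterol (5 and 3 with library totals). Slc10a1, the sodium-dependent uptake carrier NTCP (chromosome 12, 80953183 to 80968705, minus strand, GRCm38), was at 578 with ergosterol, 66.3 with stigmasterol, 899 with low and 339.7 with high sitosterol (log2 ratio 3.12, 3.08 to 3.17). Slco1a1, an organic anion uptake carrier with more transcript in male liver, was at 309.8 with ergosterol, 6.13 with stigmasterol, 505 with low and 224 with high sitosterol (log2 ratio 5.66, 5.52 to 5.80). Slco1b2, another carrier, was at 695 against 167 (log2 ratio 2.06). Abcb11, the bile salt export pump, was at 531 with ergosterol, 196 with stigmasterol, 458 with low and 261 with high sitosterol (log2 ratio 1.44). The basolateral efflux pump Abcc4 was at 1.17 with ergosterol, 9.33 with stigmasterol, 1.05 with low and 1.42 with high sitosterol (log2 ratio -2.99, -3.44 to -2.59) and Slc51b, a subunit of the basolateral exporter, had a log2 ratio of -1.57. The third on that side was Abcb1a, a drug efflux pump of the canalicular membrane (1.68 against 9.299, log2 ratio -2.46). Of these 3, Slc51b reached 1 CPM in the stigmasterol library alone. For Slc10a1 and Slco1a1 the stigmasterol liver was below each of the other 3 livers, and for Abcc4 it was above each of them.

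The FXR axis gave 5 of 9 analysed genes higher in the ergosterol liver and 1, Slc51b, higher in the stigmasterol liver (median 1.44), and it shares Cyp7a1, Cyp8b1 and Abcb11 with the lists above. Nr0b2, the FXR target SHP that restrains Cyp7a1, was at 57.2 with ergosterol, 18.4 with stigmasterol, 35.8 with low and 20.6 with high sitosterol (log2 ratio 1.64, 1.54 to 1.74). SHP and the genes it restrains, Cyp7a1 and Cyp8b1, were thus higher in the same library. Nr1h4, which encodes FXR, was at 90.9 against 47.2 (log2 ratio 0.94) and not past the rule. Of the targets that FXR raises, Nr0b2 and Abcb11 were higher in the ergosterol liver and Slc51b in the stigmasterol liver. However, Slc51b reached 1 CPM in the stigmasterol library alone, so that its direction was partly set by the filter.

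Most of the abundant plasma proteins of hepatocytes stayed within 2-fold, and hepatocyte transcription factors and genes of glucose handling had medians close to theirs. Of 26 secreted plasma proteins, 4 passed the rule with ergosterol and 0 with stigmasterol, with a median of 0.70 (0.16 with library totals, where none passed), which is a level to set beside the hepatocyte lists that follow. Alb was at 84177 with ergosterol, 42094 with stigmasterol, 79153 with low and 107958 with high sitosterol (log2 ratio 1.000), and the rule did not count it. Of 14 hepatocyte transcription factors, 4 were higher in the ergosterol liver (median 0.73, 2 with library totals). Hnf4a, the main regulator of hepatocyte identity, was not among them, at 520.04 with ergosterol, 304 with stigmasterol, 619 with low and 461 with high sitosterol (log2 ratio 0.77). The widest ratio was that of Nr1i3, the xenobiotic receptor CAR, at 113 with ergosterol, 9.12 with stigmasterol, 30.1 with low and 60.9 with high sitosterol (log2 ratio 3.64, 3.52 to 3.76). Genes of gluconeogenesis and glucose handling had 5 of 13 higher in the ergosterol liver (median 0.74), with 1 past the rule under library totals. They included Slc2a2, the hepatocyte glucose transporter (252 against 84.8, log2 ratio 1.57).

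Pericentral genes, the programme that Wnt signals maintain in the hepatocytes around the central vein, were higher in the ergosterol liver in 10 of 16 cases and in no case higher in the stigmasterol liver (median log2 ratio 1.55, 8 past the rule with library totals). Glul, glutamine synthetase, which marks the innermost layer of cells (chromosome 1, 153899944 to 153909723, plus strand, GRCm38), was at 992 with ergosterol, 124 with stigmasterol, 1241 with low and 425 with high sitosterol (log2 ratio 3.005, 2.97 to 3.04). Cyp2e1, a cytochrome of the same zone, was at 8261 with ergosterol, 1048 with stigmasterol, 8544 with low and 5037 with high sitosterol (log2 ratio 2.98), and Oat, ornithine aminotransferase, at 1034 against 141 (log2 ratio 2.87). Slc1a2, the glutamate carrier of pericentral cells, was at 141 against 11.2 (log2 ratio 3.65) and the Wnt target Lgr5 at 6.76 against 1.14 (log2 ratio 2.55). For each of these genes the stigmasterol liver was the lowest of the 4. The ligands that endothelial cells of the central vein secrete were low in both, with Wnt2 at 3.66 against 0.748 (log2 ratio 2.28) and Wnt9b at 1.66 against 0.323 (log2 ratio 2.33) past the rule. Rspo3, which strengthens their signal, was at 3.88 against 4.49 and not past it (log2 ratio -0.21, 95% interval -0.49 to 0.06). Wnt9b reached 1 CPM in the ergosterol library alone, so that its direction was partly set by the filter.

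Periportal and urea cycle genes did not mirror this, since 3 of 16 were higher in the stigmasterol liver, none in the ergosterol liver, and their median of 0.52 became -0.01 with library totals and -0.11 on TPM. The 3 were Cdh1, the epithelial cadherin, which bile duct cells also hold (22.6 against 108, log2 ratio -2.25), Aldh1b1, a mitochondrial aldehyde dehydrogenase (56.4 against 221, log2 ratio -1.97), and Sds, serine dehydratase (187 against 383, log2 ratio -1.04). Cps1 and Ass1, of the urea cycle, were at 2568 against 1691 (log2 ratio 0.60) and 3109 against 3267 (log2 ratio -0.07). The zones thus differed in the size of the difference: the median was 1.55 for pericentral and 0.52 for periportal genes, a gap that a scaling factor does not alter.

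Male-biased genes, which pulses of growth hormone maintain in male liver, held the highest list median. Of 23 genes, 19 were higher with ergosterol and none with stigmasterol (median log2 ratio 2.82), and with library totals the counts were 18 and 2. Hsd3b5, a male-specific steroid dehydrogenase, was at 132 with ergosterol, 0.895 with stigmasterol, 368 with low and 58.4 with high sitosterol (log2 ratio 7.19, 6.84 to 7.60). Elovl3, a fatty acid elongase, was at 524 with ergosterol, 19.9 with stigmasterol, 393 with low and 63.4 with high sitosterol (log2 ratio 4.72). Mup7, a major urinary protein (chromosome 4, 60066469 to 60070475, minus strand, GRCm38), was at 6818 with ergosterol, 122 with stigmasterol, 25881 with low and 2086 with high sitosterol (log2 ratio 5.80). Mup15 was assigned 23005 counts with ergosterol and 0 with stigmasterol, at least 11736-fold higher with 3 counts taken for the stigmasterol library, and it was also at 0 in the high sitosterol liver. Mup genes are near copies of each other, so that their reads may be assigned to the wrong copy. Mup20, another copy, was not past the rule and was lower in the ergosterol liver (1707 against 2918, log2 ratio -0.77). In 21 of 23 male-biased genes the low sitosterol liver, and in 16 the high sitosterol liver, was nearer to the ergosterol liver.

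Female-biased genes were fewer and divided. Of 21 listed, 12 reached the limit, 7 of them in 1 library alone, with 6 higher in the stigmasterol liver and 2 in the ergosterol liver. Cyp2a4, a steroid hydroxylase, was at 0.853 with ergosterol, 160.2 with stigmasterol, 1.17 with low and 198 with high sitosterol (log2 ratio -7.54, -8.05 to -7.10), so that the stigmasterol and high sitosterol livers were high and the others near 1. Sult1e1, the estrogen sulfotransferase, was at 0.404 with ergosterol, 6.31 with stigmasterol, 0.0489 with low and 31.05 with high sitosterol (log2 ratio -3.94), with the same pair of livers high. Cyp2c40 went the other way (14.5 with ergosterol, 2.904 with stigmasterol, 62.6 with low and 111 with high sitosterol, log2 ratio 2.32). Reads of Cyp2a and Cyp2c genes are shared within each family. Of 13 genes of the growth hormone and IGF axis, 3 were higher in the ergosterol liver, namely the receptor Ghr (414 against 150.4, log2 ratio 1.46), Igfals, the carrier subunit of circulating IGF1 (log2 ratio 1.43), and Bcl6, a repressor of female-biased genes (52.9 against 17.8, log2 ratio 1.57). Their list median of 0.21 became -0.32 with library totals, where 1 was higher with ergosterol and 1 with stigmasterol.

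**Figure D3:**
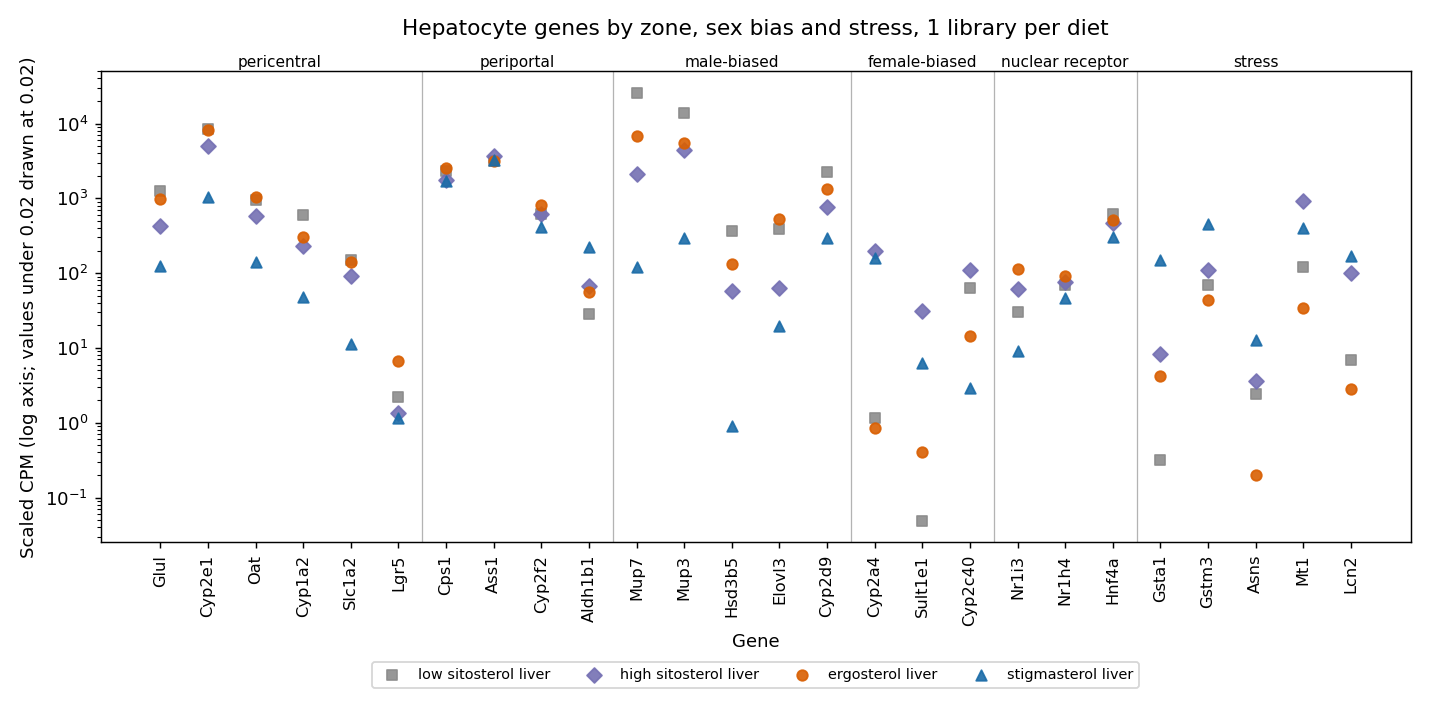
Scaled CPM (y axis, log scale) of hepatocyte genes (x axis) grouped by zone, sex bias, nuclear receptors and stress in the 4 livers, 1 library per diet and 1 point per library, without error bars since there are no replicates. Pericentral and male-biased genes are lowest in the stigmasterol liver (Glul 124 against 992 in the ergosterol liver), stress genes such as Gsta1 and Asns are highest in it, and the periportal list as a whole changes sign with library totals.

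Genes of drug metabolism were divided between the livers. Of 20 analysed targets and receptors of CAR and PXR, 8 were higher with ergosterol and 6 with stigmasterol, with a median of -0.04 that became 0.02 with DESeq2 size factors. Cyp2c37 (207 with ergosterol, 4.59 with stigmasterol, 158 with low and 28.8 with high sitosterol, log2 ratio 5.49, 5.33 to 5.66), Cyp2c54 (log2 ratio 5.14) and Cyp2c50 (log2 ratio 4.44), related cytochromes with shared reads, were far higher in the ergosterol liver, as was the receptor Nr1i3. Cyp3a11, the main PXR target, was at 1152 with ergosterol, 2681 with stigmasterol, 606 with low and 559 with high sitosterol (log2 ratio -1.22). Cyp2b10, the main CAR target, was at 2.02 with ergosterol, 8.24 with stigmasterol, 0.122 with low and 2.22 with high sitosterol (log2 ratio -2.02). Both were higher in the stigmasterol liver. CAR transcript and its best-known target therefore stood higher in opposite libraries.

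NRF2 targets, the antioxidant and conjugation genes, were higher in the stigmasterol liver in 9 of 17 cases and in no case higher in the ergosterol liver (median log2 ratio -1.36). Gsta1, a glutathione transferase, was at 4.197 with ergosterol, 151 with stigmasterol, 0.318 with low and 8.399 with high sitosterol (log2 ratio -5.17, -5.39 to -4.96). Gstm3, another, was at 44.2 with ergosterol, 459 with stigmasterol, 69.2 with low and 111 with high sitosterol (log2 ratio -3.38). Nqo1, a quinone reductase, was at 4.15 against 11.1 (log2 ratio -1.41). Gpx2, an epithelial glutathione peroxidase, had 0 counts with ergosterol and 134 with stigmasterol, at least 29.2-fold higher with 3 counts taken for the ergosterol library. Of the 17 genes, 4 reached the limit in 1 library alone. Metallothioneins, small zinc-binding proteins raised by metals and glucocorticoids, formed a list of 6 with zinc transporters, of which 3 were higher with stigmasterol and 1 with ergosterol. Mt1 was at 34.3 with ergosterol, 398 with stigmasterol, 122 with low and 914 with high sitosterol (log2 ratio -3.54). Mt2 was at 8.17 with ergosterol, 247 with stigmasterol, 70.4 with low and 509.9 with high sitosterol (log2 ratio -4.92). The high sitosterol liver was the highest for both.

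Stress programmes differed from each other. Of 19 genes of the integrated stress response and ATF4, 7 were higher in the stigmasterol liver and 1 in the ergosterol liver (median -0.51; 10 and 0 with library totals), and 5 of the 19 reached the limit in 1 library alone. Asns, asparagine synthetase, had the widest ratio and was at 0.202 with ergosterol, 12.9 with stigmasterol, 2.42 with low and 3.61 with high sitosterol (log2 ratio -5.93, -7.13 to -5.06). Stc2, a secreted glycoprotein, followed with a log2 ratio of -5.69, and Phgdh and Psat1 of serine synthesis had ratios of -5.14 and -3.97. Trib3, a pseudokinase of the same response, was at 9.72 against 37.8 (log2 ratio -1.96). Atf3 and Ddit3, its transcription factors, were at 10.7 against 16.6 and 6.94 against 13.2 and not past the rule (log2 ratios -0.63 and -0.93). The unfolded protein response had 2 of 16 genes higher with ergosterol and none with stigmasterol (median 0.58, 0.04 with library totals, where none passed), and its chaperone Hspa5 was at 593 against 429 (log2 ratio 0.47). Of 16 p53 targets and apoptosis genes, 5 were higher in the stigmasterol liver and none in the ergosterol liver, among them Cdkn1a, the cell cycle inhibitor p21 (36.03 against 86.05, log2 ratio -1.26), and Phlda3 (log2 ratio -2.67). With library totals 9 were, and 3 of the 16 reached the limit in 1 library alone. Of 13 heat shock chaperones, 2 were higher in the ergosterol liver (1 with library totals), with Hspa1b at a log2 ratio of 2.68 and reads shared with its twin Hspa1a.

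Macrophage genes were divided. Of 19 markers of Kupffer cells and other macrophages, 6 were higher with ergosterol and 6 with stigmasterol (median log2 ratio -0.71). With library totals the counts were 5 and 10 (median -1.24), so that the even split depends on the scaling, and 4 of the 19 reached the limit in 1 library alone. The 6 on the ergosterol side are markers of resident Kupffer cells. Marco, also in the list, was not among them, so that the division was not a clean one by cell type. Timd4, a receptor for dying cells, was at 6.87 with ergosterol, 0.205 with stigmasterol, 2.98 with low and 1.14 with high sitosterol (log2 ratio 5.005). Cd163, the haemoglobin scavenger receptor (chromosome 6, 124304656 to 124330527, plus strand, GRCm38), was at 11.6 with ergosterol, 0.235 with stigmasterol, 8.21 with low and 0.972 with high sitosterol (log2 ratio 5.57, 4.91 to 6.44). Clec4f, a lectin of mouse Kupffer cells, was at 131 with ergosterol, 24.1 with stigmasterol, 79.5 with low and 218 with high sitosterol (log2 ratio 2.45). Vsig4, Folr2 and Cd5l followed with log2 ratios of 1.80, 2.32 and 1.15. The stigmasterol side held genes of monocytes and newly recruited macrophages, and also other members of the list that are not named here. Cx3cr1, the fractalkine receptor, was at 0.561 with ergosterol, 16.2 with stigmasterol, 0.562 with low and 1.403 with high sitosterol (log2 ratio -4.83). Ccr2 and Itgam had log2 ratios of -3.28 and -3.26. The general macrophage genes Adgre1 and Csf1r were not past the rule, with log2 ratios of -0.36 (95% interval -0.49 to -0.24) and 0.09 (95% interval 0.02 to 0.16), both within 2-fold.

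Genes of lipid-associated macrophages, the cells that gather where lipid or dead cells are cleared, were higher in the stigmasterol liver in 12 of 16 cases, with 1, Fabp5, higher in the ergosterol liver (median log2 ratio -2.80, and the same counts with library totals), and 3 of the 16 reached the limit in 1 library alone. Gpnmb, a lysosomal glycoprotein (chromosome 6, 49036546 to 49070929, plus strand, GRCm38), had 14 counts with ergosterol and 2404 with stigmasterol. Scaled, it was at 0.314 with ergosterol, 35.3 with stigmasterol, 0.0977 with low and 20.7 with high sitosterol (log2 ratio -6.77, -7.68 to -6.06). Trem2, a lipid receptor (log2 ratio -3.98), Mmp12, the macrophage elastase (1.0999 against 31.1, log2 ratio -4.81), and Itgax (log2 ratio -4.47) lay on the same side. Spp1, osteopontin, was at 32.1 with ergosterol, 825 with stigmasterol, 56.1 with low and 55.4 with high sitosterol (log2 ratio -4.68), but bile duct cells make it too, and it is also in the bile duct list. The high sitosterol liver had Gpnmb at 20.7, near the stigmasterol value, and Spp1 at 55.4, near the low sitosterol value, so that these 2 genes did not go together across the livers.

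Antigen presentation and lymphoid genes past the rule were all higher in the stigmasterol liver. All 7 genes of class II presentation were past the rule in that direction (median log2 ratio -2.06, range -2.59 to -1.64). Of the 7, 1 reached the limit in 1 library alone. H2-Eb1, a class II chain, was at 32.7 with ergosterol, 198 with stigmasterol, 24.01 with low and 81.2 with high sitosterol, and the invariant chain Cd74 had a log2 ratio of -2.06. Of 10 T and NK cell markers 8 were higher in the stigmasterol liver, but 8 of the 10 reached the limit in 1 library alone, and the list summed to 9.18 scaled CPM with ergosterol and 22.1 with stigmasterol. B and plasma cell genes were higher in 7 of 10 cases, although 5 of the 10 reached the limit in 1 library alone. They were led by Igha, the IgA heavy chain (0.965 with ergosterol, 94.7 with stigmasterol, 2.25 with low and 4.04 with high sitosterol, log2 ratio -6.60), and Jchain, which joins IgA into dimers (log2 ratio -4.01). Neutrophil genes were rare in both, with 6 of 13 at the limit and a summed level of 3.75 and 14.6 scaled CPM, of which 5 passed the rule in the stigmasterol direction. Of these 6, 5 reached the limit in 1 library alone. Genes that reach the limit in 1 library alone were selected for being high there, so the counts of these lists are a description and support no direction.

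Most chemokines were higher in the stigmasterol liver, while the acute phase proteins of hepatocytes were divided. Of 15 chemokines analysed, 11 were higher in the stigmasterol liver and 1, Ccl24, an eosinophil attractant, in the ergosterol liver (log2 ratio 1.39), and 7 of them reached the limit in 1 library alone. Cx3cl1, the ligand of Cx3cr1, had a log2 ratio of -4.47, and Ccl2, the ligand of Ccr2, was at 0.382 with ergosterol, 3.73 with stigmasterol, 1.27 with low and 7.21 with high sitosterol (log2 ratio -3.26). These receptors and their ligands were on the same side. However, Cx3cr1, Cx3cl1 and Ccl2 reached 1 CPM in the stigmasterol library alone, so that their direction was partly set by the filter. Cxcl1, a neutrophil attractant, was not past the rule (6.62 against 5.35, log2 ratio 0.31). Of 13 cytokines and sensors, 6 were higher in the stigmasterol liver, among them the oncostatin M receptor Osmr (log2 ratio -3.07), the endotoxin co-receptor Cd14 (3.098 against 24.5, log2 ratio -2.98) and the receptor antagonist Il1rn (log2 ratio -2.88). In the same list 1, the cytokine Il18, was higher in the ergosterol liver (log2 ratio 1.22). Interferon-stimulated genes had 9 of 23 higher in the stigmasterol liver and none in the ergosterol liver (median -0.77; 14 and none with library totals), with Isg15 at 8.597 against 18.6 (log2 ratio -1.11) and Irf7 not past the rule (log2 ratio -0.08). Of 23 acute phase proteins, 4 were higher with ergosterol and 3 with stigmasterol, with a median of 0.10 that became -0.43 with library totals, where the counts were 2 and 7. Lcn2, lipocalin 2, was the widest of them (2.81 with ergosterol, 172 with stigmasterol, 6.89 with low and 99.2 with high sitosterol, log2 ratio -5.93), while Saa1, serum amyloid A, was not past the rule (81.8 against 125, log2 ratio -0.61).

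Bile duct genes had the lowest median of all lists. Of 17 cholangiocyte and ductular genes, 15 were higher in the stigmasterol liver and none in the ergosterol liver (median log2 ratio -3.61, 16 with library totals), and 7 of the 17 reached the limit in 1 library alone. Epcam, an adhesion molecule of duct epithelium, was at 1.05 with ergosterol, 31.8 with stigmasterol, 1.76 with low and 1.25 with high sitosterol (log2 ratio -4.90). Krt19 and Krt7, the keratins of duct cells, were at 1.12 with ergosterol, 11.4 with stigmasterol, 1.91 with low and 1.12 with high sitosterol for Krt19 (log2 ratio -3.34, -3.79 to -2.93) and at a log2 ratio of -3.11 for Krt7. Cldn4, a tight junction claudin (chromosome 5, 134945119 to 134946934, minus strand, GRCm38), had 1 count with ergosterol and 785 with stigmasterol (log2 ratio -8.52, 95% interval -14.31 to -6.52). Sox9, a transcription factor of duct cells and of reactive hepatocytes, was at 3.75 with ergosterol, 17.4 with stigmasterol, 3.52 with low and 11.1 with high sitosterol (log2 ratio -2.21). The list summed to 1163 scaled CPM in the stigmasterol liver against 166, 176 and 191 in the ergosterol, low sitosterol and high sitosterol livers, so that the other 3 livers were close together. Spp1 made up most of that sum in the stigmasterol liver.

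Matrix genes and markers of the cells that lay matrix down were also higher in the stigmasterol liver. Of 18 collagen chains, 14 were higher there and 1, Col18a1, a collagen that hepatocytes make, was higher in the ergosterol liver (1112 against 535, log2 ratio 1.06), a call that library totals end. Of the 18, 1 reached the limit in 1 library alone. Col1a1 (chromosome 11, 94936224 to 94953042, plus strand, GRCm38) was at 7.21 with ergosterol, 179.6 with stigmasterol, 10.1 with low and 14.9 with high sitosterol (log2 ratio -4.64, -4.80 to -4.48). Col3a1 was at 23.8 with ergosterol, 342 with stigmasterol, 23.4 with low and 34.8 with high sitosterol (log2 ratio -3.84). The other 3 livers had Col1a1 levels between 7.21 and 14.9. Of 22 stellate cell and fibroblast genes, 2 reached the limit in 1 library alone. In the stigmasterol liver 18 were higher, and in the ergosterol liver none (median log2 ratio -2.55). They included Timp1, an inhibitor of matrix proteases (0.180 against 11.6, log2 ratio -5.94), Loxl1, which cross-links elastin (log2 ratio -4.82), and Pdgfra, a growth factor receptor of fibroblasts (log2 ratio -3.95). Lrat, the retinol acyltransferase of quiescent stellate cells, was not past the rule (8.64 against 8.48, log2 ratio 0.03, 95% interval -0.16 to 0.22). Acta2, smooth muscle actin, was at 2.99 with ergosterol, 9.99 with stigmasterol, 10.4 with low and 1.47 with high sitosterol (log2 ratio -1.74), and the low sitosterol liver was close to the stigmasterol liver for it.

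Cell cycle genes were higher in the stigmasterol liver in 22 of 29 cases and in none higher in the ergosterol liver (median log2 ratio -2.32, 28 with library totals), and 11 of the 29 reached the limit in 1 library alone. Mki67, the proliferation antigen, was at 1.89 with ergosterol, 32.5 with stigmasterol, 0.342 with low and 7.95 with high sitosterol (log2 ratio -4.10, -4.44 to -3.79). Ccnb1, the mitotic cyclin, and Birc5, survivin, had log2 ratios of -4.26 and -4.29. Ccnd1, the cyclin of early G1, was at 28.5 with ergosterol, 124 with stigmasterol, 23.6 with low and 72.9 with high sitosterol (log2 ratio -2.12), and Pcna, a replication clamp, was not past the rule (21.7 against 35.4, log2 ratio -0.71). The high sitosterol liver came next after the stigmasterol liver for Mki67 and Ccnd1. These genes mark dividing cells of any type, and which cells held the transcripts was not tested.

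**Figure D4:**
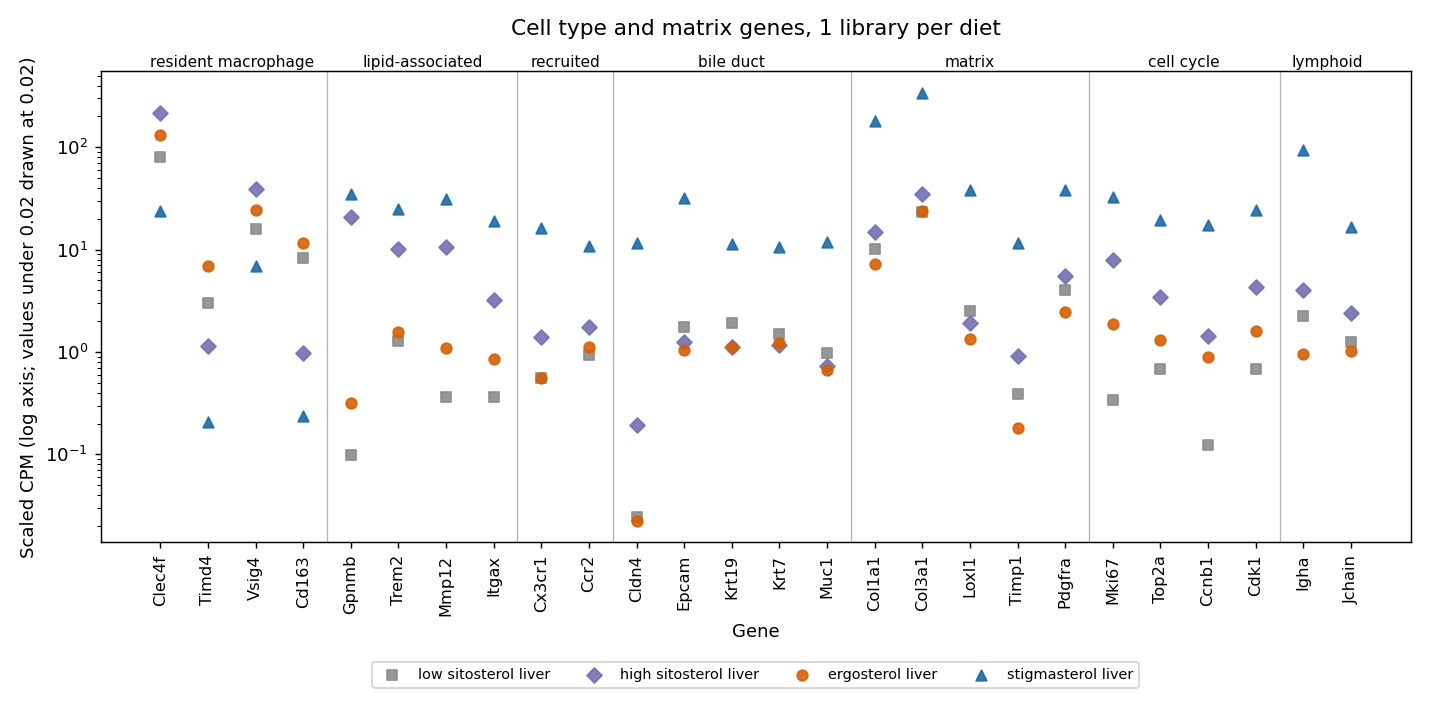
Scaled CPM (y axis, log scale, values under 0.02 drawn at 0.02) of macrophage, bile duct, matrix, cell cycle and lymphoid genes (x axis) in the 4 livers, 1 library per diet and 1 point per library, without error bars since there are no replicates. The stigmasterol liver is the highest for bile duct and matrix genes (Col1a1 at 179.6 against 7.21 in the ergosterol liver), and it is the lowest for the resident macrophage genes Clec4f, Timd4 and Cd163.

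Other cell types that a piece of liver can hold were checked in the same way. Endothelial markers had 3 of 17 higher in the ergosterol liver and 1, Lyve1, a receptor of sinusoid lining cells, in the stigmasterol liver (log2 ratio -1.83), with a median of 0.05 that became -0.49 with library totals, where the counts were 2 and 3. Of the 17, 1 reached the limit in 1 library alone. Of 5 red cell genes, 1, Alas2, was higher in the ergosterol liver, with a median of -0.04 that became 0.02 with DESeq2 size factors and -0.57 with library totals, where 0 passed the rule. Of 3 fat cell genes analysed, 1 was higher with ergosterol and 1 with stigmasterol (median -0.61). Adipoq was at 0.0224 against 0.0440 scaled CPM and Lep, Retn and Ucp1 had 0 counts in both libraries. Cfd, or adipsin, which reached 1 CPM in the ergosterol library alone, was at 34.8 with ergosterol, 0.528 with stigmasterol, 2.44 with low and 2.61 with high sitosterol (log2 ratio 6.02). Fabp4, a fatty acid binding protein of fat cells, macrophages and endothelium, went the other way (6.06 against 34.03, log2 ratio -2.49). Of 5 adrenal cortex genes analysed, 4 were higher in the stigmasterol liver, but 4 of the 5 reached the limit in 1 library alone. The list summed to 5.05 and 11.8 scaled CPM in the ergosterol and stigmasterol livers and to 117 in the low sitosterol liver, and pancreatic acinar genes to 9.29 and 9.59. Hepatocyte, Kupffer, bile duct, matrix and recruited macrophage genes thus all differed between the same 2 libraries, and the part of cell makeup in the difference of any one list was not tested.

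Genes under circadian control were compared because the hour of collection can set them, and the hour was not given in the labels. The 7 genes of the positive limb of the clock had a median of 0.04 that became -0.49 with library totals. Of 13 repressors and outputs, 3 were higher with ergosterol and 1 with stigmasterol (2 and 3 with library totals), with a median of -0.05 that became 0.01 with DESeq2 size factors. Dbp, an output gene with a steep daily rhythm, was at 6.17 with ergosterol, 8.13 with stigmasterol, 126 with low and 168 with high sitosterol (log2 ratio -0.40, -0.61 to -0.19). Npas2, a clock activator that peaks at the opposite time, was at 3.86 with ergosterol, 6.204 with stigmasterol, 0.366 with low and 0.237 with high sitosterol (log2 ratio -0.68). With library totals the log2 ratios of Dbp and Npas2 were -0.93 and -1.21, and Npas2 then passed the rule in the stigmasterol direction. For these genes the ergosterol and stigmasterol livers were nearer to each other than to either sitosterol liver. Nr1d1, the repressor REV-ERB alpha, did differ between them, at 91.7 with ergosterol, 30.1 with stigmasterol, 189.6 with low and 140.02 with high sitosterol (log2 ratio 1.61). The E-box CACGTG, on both strands, was found in 5 of 17 clock gene promoters in the RefSeq table (29.4%) against 8.09% of all genes, and the ROR element TAGGTCA in 2 (11.8%) against 2.97%. Immediate early genes were divided, with 4 of 18 higher in the ergosterol liver, 3 in the stigmasterol liver and a median of 0.29 that became -0.25 with library totals (2 and 4 genes), and Fos had a log2 ratio of 2.22.

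Housekeeping lists show what the scaling does in the absence of wide differences. None of 30 oxidative phosphorylation subunits passed the rule in either direction, with a median of 0.40 that became -0.13 with library totals. None of 47 ribosomal proteins passed either (median -0.22), but with library totals 7 were higher in the stigmasterol liver. Of 18 lysosomal genes 3 were higher in the stigmasterol liver (median -0.22), and with library totals 7 were (median -0.75). Of 16 genes of iron and heme handling, 2 were higher in the ergosterol liver, including the hepcidin Hamp2 (log2 ratio 2.56). In the same list 1, Id1, a target of the BMP signal that controls hepcidin, was higher in the stigmasterol liver (log2 ratio -2.32). With library totals the counts of that list were 1 and 6, and its median moved from -0.28 to -0.82.

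**Figure D5:**
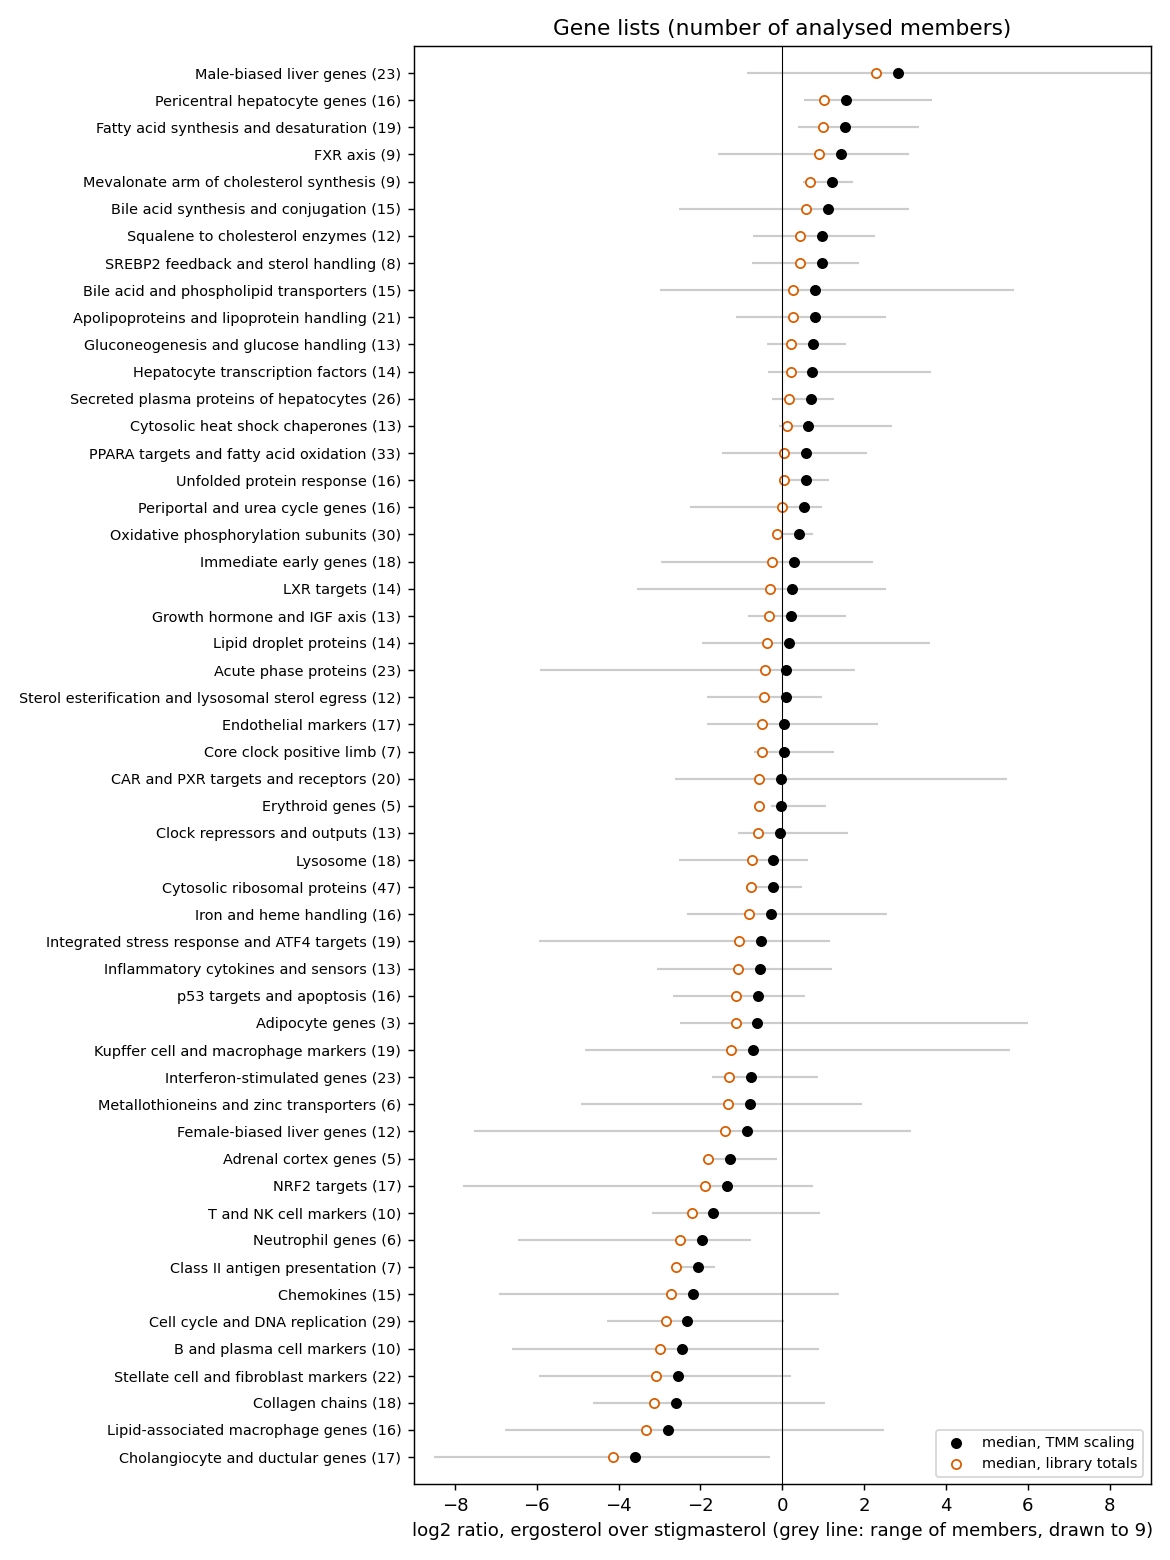
Median log2 ratio of ergosterol over stigmasterol for the gene lists with at least 3 analysed members (y axis, number of analysed members in brackets), with TMM factors (black) and library totals (open orange circles); the grey line is the range of the members, drawn to 9 at most. Bile duct genes have the lowest median (-3.61) and male-biased genes the highest (2.82), and 10 of the 52 medians, all between 0 and 0.52 with TMM factors, change sign with library totals.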

How the data were processed

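Liver RNA of male Abcg8-deficient mice was sequenced, with 1 library per diet. Libraries were made with a kit that does not mark strand, per the labels' protocols. The authors deposited estimated counts and TPM per gene symbol. Per the submitters' processing notes, the tools were kallisto 0.43.1, HISAT2 2.0.5 and Trimmomatic 0.33 and the build was mm10. Their roles and the annotation are not given in the sources used here.

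Estimated counts were rounded to whole numbers, and 1 row naming no gene, with 0 counts, was dropped. Scaling used TMM factors over the 4 livers (edgeR 4.0.16, R 4.3.3). Each ratio has an exact conditional binomial (Clopper-Pearson) 95% interval. No test across samples was possible with 1 library a side. The scripts were tested on simulated data. Coordinates come from GENCODE M21, in which 32158 of 33639 symbols matched a gene name.

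Members and the 53 gene lists were chosen with earlier results of these data known. By rule, text names came from 21 fixed genes, Abcg8 and Abcg5, the 15 highest ratios each way at 10 scaled CPM or more, the 10 largest TPM differences each way, and up to 4 members per list past the size rule. Other named genes were chosen after their values were seen, and some genes that the rule names are not reported here. Alternatives were library totals, TMM factors of the 2 livers, DESeq2 1.42.0 size factors, log2(TPM + 0.1), no filter, a filter at 5 CPM, a prior count of 5 and a 4-fold limit.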

Additional observations from a re-analysis of the deposited data

How the results depend on the processing

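Against 906 genes higher in the ergosterol liver and 2573 higher in the stigmasterol liver (74.0% of differences on the stigmasterol side), library totals gave 406 and 3984 (90.8%), and log2(TPM + 0.1) gave 397 in the ergosterol direction (90.5%). DESeq2 size factors gave a share of 71.2%. Without a low-count filter 1459 genes were higher in the ergosterol liver (71.0%), and at a mean of 5 CPM or more 1021 were higher in the stigmasterol liver (62.3%). A 4-fold limit left 215 and 1349. A prior count of 5 and TMM factors of the 2 livers alone moved neither count by more than 1.5 times. The 4-fold limit leaves the ratios as they are. Of 200 named genes past the rule (162 at a mean of 5 CPM or more), none changed sign under the other 7 alternatives, and 31, 33 and 1 were no longer past it with library totals, TPM and DESeq2 size factors. Of 52 list medians (48 at a mean of 5 CPM or more), 10 changed sign with library totals, 10 with TPM, 3 with DESeq2 size factors and 1 at a mean of 5 CPM. No paired analysis was possible because each diet has 1 library, and no library could be left out. Differences below the limit of 3 counts, 0.0673 and 0.0440 scaled CPM, were not detectable at this depth.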

Other observations

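Some of the widest differences lay outside the gene lists and were looked at after their values were seen. On the stigmasterol side, Mmp7, an epithelial matrix protease, was at 0.0673 with ergosterol, 25.3 with stigmasterol, 0.195 with low and 0.605 with high sitosterol (log2 ratio -8.38, 95% interval -10.84 to -7.01). Emp1, a membrane protein of epithelia, was at 0.449 against 51.96 scaled CPM in the ergosterol and stigmasterol livers (log2 ratio -6.83). Tspan8 and Cd24a, surface proteins of epithelial cells, were at 1.77 against 42.03 and 2.13 against 34.1 (log2 ratios -4.56 and -3.99), and Ly6d, a small surface protein, was at 5.01 with ergosterol, 142 with stigmasterol, 6.45 with low and 10.9 with high sitosterol (log2 ratio -4.83). For these genes the stigmasterol liver was above each of the other 3, which was partly set by choosing them for wide ratios. Eln, elastin, was at 1.55 with ergosterol, 59.6 with stigmasterol, 2.05 with low and 1.75 with high sitosterol (log2 ratio -5.26), next to its cross-linking enzyme Loxl1 described with the matrix. Ubd, a ubiquitin-like modifier raised by inflammatory cytokines, was at 0.943 with ergosterol, 49.9 with stigmasterol, 0.0244 with low and 6.63 with high sitosterol (log2 ratio -5.71), so that the high sitosterol liver came next. Plat, the tissue plasminogen activator, was at 0.359 against 14.8 (log2 ratio -5.33). Mmp7, Emp1, Ubd and Plat reached 1 CPM in the stigmasterol library alone, so that their direction was partly set by the filter.

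On the ergosterol side, Sult2a8, a sulfotransferase of male mouse liver that acts on bile acids, was at 470.3 with ergosterol, 9.93 with stigmasterol, 656 with low and 336 with high sitosterol (log2 ratio 5.56, 95% interval 5.46 to 5.68). Rgs16, a regulator of G protein signals, was at 200.04 with ergosterol, 15.1 with stigmasterol, 715 with low and 83.2 with high sitosterol (log2 ratio 3.73), with the low sitosterol liver the highest. Car3, a carbonic anhydrase, was at 2362 with ergosterol, 544 with stigmasterol, 1050.2 with low and 852 with high sitosterol (log2 ratio 2.12), and Ces3b, a carboxylesterase, at 398 against 68.1 (log2 ratio 2.54). Pigr, the receptor that carries IgA into bile, was at 1043 with ergosterol, 243 with stigmasterol, 516 with low and 522 with high sitosterol (log2 ratio 2.10), whereas Igha, the heavy chain of its cargo, was higher in the stigmasterol liver. Aqp8, a water channel of the bile canaliculus, was at 309 against 66.8 (log2 ratio 2.21), and Prlr, the prolactin receptor, at 78.4 with ergosterol, 17.7 with stigmasterol, 39.4 with low and 96.6 with high sitosterol (log2 ratio 2.14). Colec10, a collectin of hepatic stellate cells, was at 20.2 with ergosterol, 1.03 with stigmasterol, 10.8 with low and 12.05 with high sitosterol (log2 ratio 4.29), on the side opposite to most stellate cell genes.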
